A study of Mus musculus with 6 samples.

Results

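Cell division in the postnatal sciatic nerve was followed through 46 cell cycle and DNA replication genes, chosen by symbol from the 24015 genes of the count tables. Of these genes, 17 act at the start or during DNA replication and are called S phase genes here, and 29 act from the end of replication to the separation of the daughter cells and are called mitotic genes. The question was whether both groups of transcripts differed alike between control and Rnf40 ΔSC nerves. Rnf40 is a subunit of the E3 ligase that attaches monoubiquitin to histone H2B.

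RNA-Seq had been performed on sciatic nerves at postnatal day 14, in 3 control and 3 Rnf40 ΔSC libraries, each from a pool of 3 nerves. Control mice were Rnf40 fl/fl without Cre. Rnf40 ΔSC mice were Rnf40 fl/fl and carried Dhh::Cre in addition, a transgene that is active in the Schwann cell lineage from an early developmental stage, so that the deletion follows that lineage and not the whole nerve. All mice therefore shared the floxed alleles. The labels give a mixed 129SvJ/C57Bl/6J background and the study's methods a mixed C3H × C57Bl/6J background. Library totals were 1317167, 1992622 and 2468765 counts in control and 2184268, 1459387 and 2186710 counts in Rnf40 ΔSC nerves, so that a single count stood for 0.414 to 0.823 CPM (the count over the TMM-scaled library size, times 1000000). Most cell cycle genes were therefore read with few counts, and their standard errors are wide.

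Cells that enter the cycle first load the MCM helicase onto origins of replication, then activate cyclin E and E2F-driven genes for replication and nucleotide synthesis. Transcripts for mitosis follow in G2 under the control of B-MYB, FOXM1 and the DREAM complex, and are degraded or silenced again after division. Schwann cells divide in the perinatal nerve and leave the cycle when they start to form myelin, while fibroblasts, endothelial cells and macrophages of the nerve can divide as well.

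The labels were checked first. Rnf40 was read with 130.2, 126 and 142 normalized counts in control libraries and with 90.2, 90.4 and 94.2 in Rnf40 ΔSC libraries. Each Rnf40 ΔSC library was under each control, with a log2 fold change of -0.54 (SE 0.14, edgeR adjusted p = 0.00242). This partial difference was measured in RNA of the whole nerve, which includes cells outside the Dhh::Cre lineage. The floxed alleles also lose only some of the exons, while counts were summed over the gene. What each of these left in the counts was not tested. With total-count scaling the log2 fold change was -0.27 and the edgeR adjusted p 0.12, the highest over 12 alternatives (lowest 0.00235). Rnf20, its partner in the ligase, was read with 127, 127 and 112 normalized counts in the control libraries, against 176, 184 and 137 in the Rnf40 ΔSC libraries (log2 fold change 0.44, SE 0.13, edgeR adjusted p = 0.00998). This call was lost in 2 of 12 alternatives, without control replicate 3 (edgeR adjusted p = 0.087) and without Rnf40 ΔSC replicate 1 (0.057). The Schwann cell markers Pmp22, S100b and Sox10 were detected in every library.

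Of the 46 genes, 39 passed the filter on low counts and were tested, 12 of the 17 S phase genes and 27 of the 29 mitotic genes. A gene that passes only through the group in which it is high is selected for that difference. This held for 2 of the 39, Ccnb2 and Bub1, which reached the filter's level in no control library. In all, 7 of the 39 reached that level in fewer than 2 control libraries, among them E2f1, which had a negative log2 fold change. At an adjusted p of at most 0.05, 8 of the 39 were higher in Rnf40 ΔSC nerves (20.5%) and 1 was lower (2.56%). Of the 8, Aurkb reached the filter's level in fewer than 2 control libraries, as did 204 of the 1756 higher genes among all. Among all 11371 genes tested, 15.4% were higher and 16.2% lower. The share of higher genes was thus near the background, and 30 of the 39 passed the test in neither direction. The median log2 fold change of the 39 was 0.38, and 33 of them had a positive value (84.6%, against 49.8% of all genes tested). Fewer or more cells in division and less or more RNA per cell cannot be told apart in such libraries, and p-values measure the spread between these samples.

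The count of higher genes moved with the method. It was 5 of 39 with DESeq2, where 1172 of all 11366 genes tested were higher and 1287 lower. Without control replicate 2 it was 4 of 40, beside 1399 higher genes of 11729. With total-count scaling it was 16 of 39 (41.0%, against 33.1% of all genes tested). This scaling shifts the median of all genes by 0.27 on the log2 scale and makes 81.1% of all calls higher ones in place of 48.8%. The study also set limits of 0.8 on the size of the log2 fold change and of 20 on the base mean. With these limits set on the edgeR fit, 4 genes were higher, Mcm2, Cenpe, Kif20a and Tpx2 (3.73% of all genes tested were), and Anln was lower (5.05%). Mcm2, Mki67, Top2a and Kif20a were called higher, and Anln lower, in all 12 alternative fits, which used the adjusted p alone. Of the 39 genes tested, 15 had every Rnf40 ΔSC library above every control library (38.5%, against 22.0% of all genes tested) and 2 every library below (5.13%, against 21.6%). Bub1 and Aurkb are among the 15 and passed the filter only or mainly through the Rnf40 ΔSC libraries. Their place in this count thus came in part with the filter.

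The summed level of all 17 S phase genes, low ones included, was 231, 196 and 217 CPM in control libraries and 232, 262 and 249 CPM in Rnf40 ΔSC libraries. The means were 215 ± 17.8 and 248 ± 15.1 CPM (SD, n = 3), which is 1.15-fold. The lowest Rnf40 ΔSC library was only just above the highest control library. The summed level of the 29 mitotic genes was 341, 306 and 388 CPM in control libraries and 475, 467 and 504 CPM in Rnf40 ΔSC libraries. Here the means were 345 ± 41.5 and 482 ± 19.2 CPM (SD, n = 3), which is 1.4-fold, and the groups stood clearly apart. The ratio of mitotic to S phase counts was 1.47, 1.56 and 1.79 in the control libraries, against 2.05, 1.79 and 2.02 in the Rnf40 ΔSC libraries, so that control replicate 3 and Rnf40 ΔSC replicate 2 had the same ratio. The difference between both phases was not tested.

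**Figure D1:**
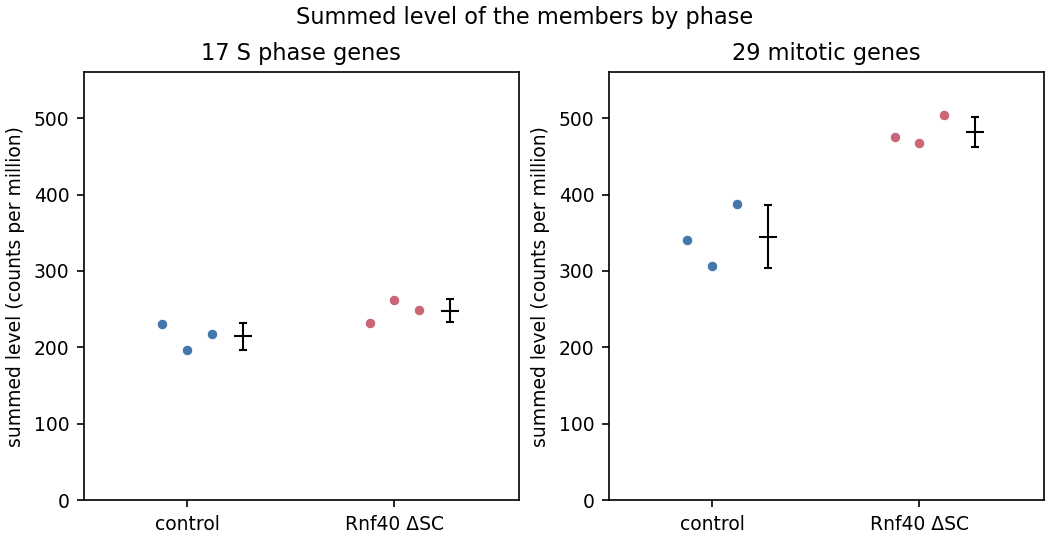
Summed level in CPM of the 17 S phase genes and of the 29 mitotic genes in each library. Points are libraries, and bars show mean ± SD of 3 libraries. The mitotic sum was 306 to 388 CPM in control and 467 to 504 CPM in Rnf40 ΔSC nerves, while the S phase sums of both groups nearly touched at 231 and 232 CPM.

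Among the S phase genes, the calls fell on the MCM helicase, the ring of 6 different subunits that is loaded onto origins and unwinds DNA at the fork. Of the 6 subunit genes, 2 were called higher by edgeR (33.3%, against 15.4% of all genes tested) and 1 by DESeq2. Mcm2 (mm9 chr6:88833469-88848774, minus strand) was read with 28.6, 22.9 and 31.8 normalized counts in the control libraries, against 45.5, 66.3 and 54.3 in the Rnf40 ΔSC libraries. All Rnf40 ΔSC libraries were above all control libraries, with a log2 fold change of 0.96 (SE 0.23, edgeR adjusted p = 0.000996). Mcm7 (mm9 chr5:138605811-138613650, minus strand) had 30.2, 26.2 and 33.6 normalized counts in the control libraries, against 50.5, 50.6 and 49.5 in the Rnf40 ΔSC libraries. Its 3 Rnf40 ΔSC libraries were almost equal and above all controls (log2 fold change 0.73, SE 0.22, edgeR adjusted p = 0.00873). This call was lost with DESeq2 (adjusted p = 0.0526) and in edgeR without control replicate 2 (adjusted p = 0.0536), over a range of 0.000349 to 0.0536 in 12 alternatives. Mcm7 shares exon sequence with Ap4m1 and Cops6 on the other strand, and the strand setting of the counting is not given in the sources used here, so that its value is uncertain. In all, 12 of the 46 genes share exon sequence with another annotated gene, Top2a with a small nucleolar RNA. Ccne2, Gins2, Tyms, Tk1, Ccna2, Cdc20, Ube2c, Kif20a and Nusap1 share it with a gene on the other strand. The values of these genes below are uncertain in the same way. For Ube2c the other gene is Tnnc2, one of the skeletal muscle markers.

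The other subunits did not pass the test. Mcm6 had 25.4, 39.2 and 37.0 normalized counts in the control libraries, against 49.7, 55.4 and 47.9 in the Rnf40 ΔSC libraries. The groups did not overlap, and the edgeR adjusted p of 0.0507 (log2 fold change 0.54, SE 0.22) was just past the threshold, below which it came in 5 of 12 alternatives. Mcm5 had 20.6, 12.0 and 21.5 normalized counts in the control libraries, against 22.4, 24.1 and 27.9 in the Rnf40 ΔSC libraries (log2 fold change 0.46, SE 0.30). Mcm4, which had the highest level per exon length of all 46 genes, had 13.1, 9.45 and 11.1 CPM per kb in the control libraries, against 12.8, 15.7 and 12.2 in the Rnf40 ΔSC libraries, and its groups overlapped (log2 fold change 0.28, SE 0.16). Without control replicate 2, the log2 fold change of Mcm5 fell to 0.23 and that of Mcm4 to 0.17. Mcm3 had a log2 fold change of -0.17 (SE 0.26), and its sign turned with total-count scaling. The 6 subunits of a complex with equal parts thus differed in transcript level per length by several-fold, from 2.68 CPM per kb for Mcm5 to 11.2 for Mcm4 in control nerves. Their summed level was 125, 98.3 and 121 CPM in the control libraries, against 149, 173 and 152 CPM in the Rnf40 ΔSC libraries, 1.38-fold and without overlap.

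**Figure D2:**
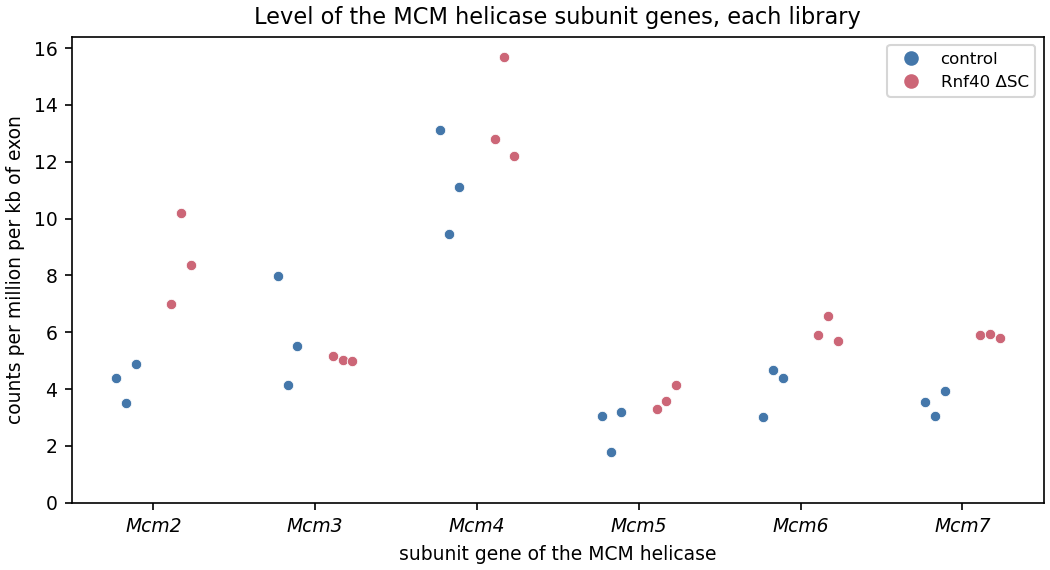
Level of the MCM helicase subunit genes in CPM per kb of exon, each point a library. Mcm2, Mcm5, Mcm6 and Mcm7 had every Rnf40 ΔSC library above every control library, while the groups overlapped for Mcm3 and Mcm4. Among all genes tested, 22.0% had every Rnf40 ΔSC library above every control library.

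None of the remaining S phase genes that were tested was called by edgeR. Ccne2 encodes a cyclin E, which with CDK2 drives cells from G1 into S phase. It had 20.6, 24.0 and 15.5 normalized counts in the control libraries, against 9.94, 10.8 and 12.0 in the Rnf40 ΔSC libraries. Every Rnf40 ΔSC library was lower than every control library, but with so few counts the log2 fold change of -0.85 (SE 0.35) did not pass the test (edgeR adjusted p = 0.063). E2f1, a transcription factor for S phase genes, had a log2 fold change of -0.16 (SE 0.43). Pcna, the sliding clamp of DNA polymerases, had 28.6, 27.2 and 31.0 normalized counts in the control libraries, against 18.2, 13.3 and 31.9 in the Rnf40 ΔSC libraries. Only Rnf40 ΔSC replicate 3 reached the control level, and without this library the log2 fold change of Pcna went from -0.41 to -0.84 and passed the test (edgeR adjusted p = 0.0418, range over 12 alternatives 0.0418 to 0.732). Rrm1 and Rrm2, the subunits of ribonucleotide reductase that supplies deoxynucleotides, had log2 fold changes of -0.11 (SE 0.18) and 0.05 (SE 0.31), and Gins2, a part of the active helicase, of 0.20 (SE 0.42). The nucleotide supply genes together summed to 57.6, 56.5 and 50.4 CPM in the control libraries, against 48.5, 56.2 and 53.8 CPM in the Rnf40 ΔSC libraries, with overlap.

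Genes under the filter were Ccne1, Cdt1, Cdc6, Tyms and Tk1 of the S phase group and Ccnb1 and Cenpa of the mitotic group. Their raw counts ranged from 1 to 18 per library. Ccnb1, the main cyclin of mitotic entry, had 1, 1 and 3 counts in the control libraries, against 5, 8 and 6 in the Rnf40 ΔSC libraries, and no fold is given for it because the control libraries did not exceed 3 counts.

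In the mitotic group, both general proliferation markers were higher. Mki67 (mm9 chr7:142881471-142908062, minus strand) encodes Ki67, a coat protein of mitotic chromosomes that is present in all active phases of the cycle and used to stain dividing cells. It was read with 90.5, 79.5 and 105 normalized counts in the control libraries, against 133, 116 and 179 in the Rnf40 ΔSC libraries. The groups did not overlap, although Rnf40 ΔSC replicate 3 was far above the others of its group, and the log2 fold change was 0.64 (SE 0.15, edgeR adjusted p = 0.0014). The study had stained the protein in nerve sections. It reported more Ki67-positive cells, and a higher share of them among Schwann cells, in Rnf40 ΔSC nerves at every age examined. That is a count of stained cells, while the values here are RNA of the whole nerve. Top2a (mm9 chr11:98854257-98885503, minus strand), the topoisomerase that untangles sister chromatids, had 44.5, 61.0 and 47.3 normalized counts in the control libraries, against 71.2, 89.2 and 82.2 in the Rnf40 ΔSC libraries. Again every Rnf40 ΔSC library was above every control library (log2 fold change 0.65, SE 0.18, edgeR adjusted p = 0.00561).

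Genes of mitotic entry and exit had positive values, none of which passed the test. Ccna2, the cyclin A of S phase and G2, had 55.6, 22.9 and 40.5 normalized counts in the control libraries, against 59.6, 63.9 and 48.7 in the Rnf40 ΔSC libraries. Control replicate 1 lay within the Rnf40 ΔSC range (log2 fold change 0.56, SE 0.23, edgeR adjusted p = 0.0583), and the adjusted p was at most 0.05 in 5 of 12 alternatives. Without control replicate 2 the log2 fold change fell to 0.28 (edgeR adjusted p = 0.402). The kinase gene Cdk1, the transcription factor gene Foxm1 and the genes Cdc20 and Ube2c of the anaphase-promoting complex pathway had log2 fold changes of 0.32, 0.27, 0.38 and 0.58. Ccnb2, a partner cyclin gene of Cdk1, had raw counts of 6, 6 and 9 in the control libraries, against 13, 7 and 16 in the Rnf40 ΔSC libraries, and it passed the filter only through the latter, so that no test is given. Together with Ccna2 and Ccnb1 these genes summed to 78.2, 55.9 and 79.9 CPM in the control libraries, against 96.6, 106 and 94.3 CPM in the Rnf40 ΔSC libraries.

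Of the spindle checkpoint and mitotic kinase genes, only Aurkb (mm9 chr11:68859149-68865166, plus strand) passed the test. Aurora kinase B corrects faulty attachments of chromosomes to the spindle. The gene had 6.35, 3.27 and 10.3 normalized counts in the control libraries, against 19.0, 13.3 and 15.2 in the Rnf40 ΔSC libraries, with a log2 fold change of 1.19 (SE 0.42, edgeR adjusted p = 0.0275). The groups did not overlap, but the counts were low. Only 1 control library reached the level of the filter, against 3 Rnf40 ΔSC libraries. Aurkb thus passed the filter mainly through the group in which it was high, and its test carries little weight. The call was lost with DESeq2 (adjusted p = 0.117) and in edgeR when control replicate 1 (0.0732), control replicate 2 (0.174) or the first Rnf40 ΔSC library (0.123) was left out, and the adjusted p spanned 0.0054 to 0.174 in 11 alternatives. Its partner in the chromosomal passenger complex, Birc5, had a log2 fold change of 0.62 (SE 0.37), the checkpoint genes Bub1b and Mad2l1 of 0.29 and 0.16, and the kinase genes Aurka and Plk1 of 0.48 and 0.34, none of them called. With a single library left out, values ran from 0.01 to 0.58 for Bub1b, 0.09 to 0.27 for Mad2l1 and 0.14 to 0.69 for Plk1. Bub1, a checkpoint kinase gene that like Ccnb2 passed the filter only through the Rnf40 ΔSC libraries, had raw counts of 4, 8 and 9 in the control libraries, against 15, 10 and 23 in the Rnf40 ΔSC libraries.

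Centromere and spindle genes held the other calls. Cenpe (mm9 chr3:134875527-134936504, plus strand) encodes a kinesin that moves chromosomes to the spindle equator. It had 11.1, 9.81 and 19.8 normalized counts in the control libraries, against 29.8, 37.4 and 21.5 in the Rnf40 ΔSC libraries (log2 fold change 1.03, SE 0.32, edgeR adjusted p = 0.0134). Control replicate 3 and Rnf40 ΔSC replicate 3 lay close together, and the call was lost with DESeq2 (adjusted p = 0.0549) and in edgeR when control replicate 1 (0.0509), control replicate 2 (0.094) or the second Rnf40 ΔSC library (0.0731) was left out, and the adjusted p spanned 0.00158 to 0.094 in 11 alternatives.

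Kif20a, a kinesin of the central spindle needed for cytokinesis, had 22.2, 15.3 and 34.4 normalized counts in the control libraries, against 51.3, 51.8 and 56.7 in the Rnf40 ΔSC libraries. With a log2 fold change of 1.10 (SE 0.24, edgeR adjusted p = 0.000481) it had the lowest adjusted p of all members, and the Rnf40 ΔSC libraries were close to each other. Its exons overlap those of Cdc23 on the other strand, which leaves the value uncertain in the same way as for Mcm7. Tpx2 (mm9 chr2:152673700-152721057, plus strand), which activates Aurora A and nucleates spindle microtubules, had 30.2, 18.5 and 38.7 normalized counts in the control libraries, against 43.1, 53.0 and 63.8 in the Rnf40 ΔSC libraries (log2 fold change 0.85, SE 0.24, edgeR adjusted p = 0.00583). This call was lost without control replicate 2, the lowest library (edgeR adjusted p = 0.0835, range over 12 alternatives 0.00036 to 0.0835). Cenpf, Kif11, Kif23, Nusap1, Prc1 and Hmmr, all of kinetochores or spindle microtubules, had log2 fold changes of 0.36, 0.47, 0.30, 0.38, 0.37 and 0.65 and were not called. With a single library left out, values ran from 0.19 to 0.46 for Cenpf, 0.07 to 0.60 for Kif23, 0.19 to 0.58 for Nusap1 and 0.37 to 0.87 for Hmmr.

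Anln was the exception in the mitotic group. Anillin is a scaffold protein that links actin, myosin and septins in the contractile ring, and in myelinating glia it is also known as a myelin component that holds septin filaments. The gene (mm9 chr9:22135658-22193650, minus strand) had 57.2, 59.9 and 58.5 normalized counts in the control libraries, against 44.7, 14.5 and 31.9 in the Rnf40 ΔSC libraries. The controls were nearly equal, and all Rnf40 ΔSC libraries were lower, replicate 2 most (log2 fold change -0.89, SE 0.25, edgeR adjusted p = 0.00587). Other cytokinesis genes had positive values without a call, Ect2 with a log2 fold change of 0.74 (SE 0.32, edgeR adjusted p = 0.076) and Racgap1 of 0.14 (SE 0.23). The value of Ect2 hung on single libraries, with 0.45 without Rnf40 ΔSC replicate 2 and 1.18 without control replicate 3, and its adjusted p was at most 0.05 in 3 of 11 alternatives. Without Anln, the sum of the other 28 mitotic genes was 1.48-fold in Rnf40 ΔSC over control nerves. Of 10 septin genes tested, 3 were lower (30.0%, against 16.2% of all genes tested) and 0 higher by edgeR, and 4 (40.0%) had an unadjusted p of at most 0.05, as did 41.0% of all genes tested. DESeq2 gave the same counts of 3 and 0, and total-count scaling 2 lower and 4 higher (among all genes 7.74% and 33.1%), with the call of Sept6 lost (adjusted p = 0.0691). Sept3, Sept8 and Sept6 had log2 fold changes of -1.80, -0.66 and -0.55, while Sept2, Sept9 and Sept7 had 0.22, 0.16 and 0.05.

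**Figure D3:**
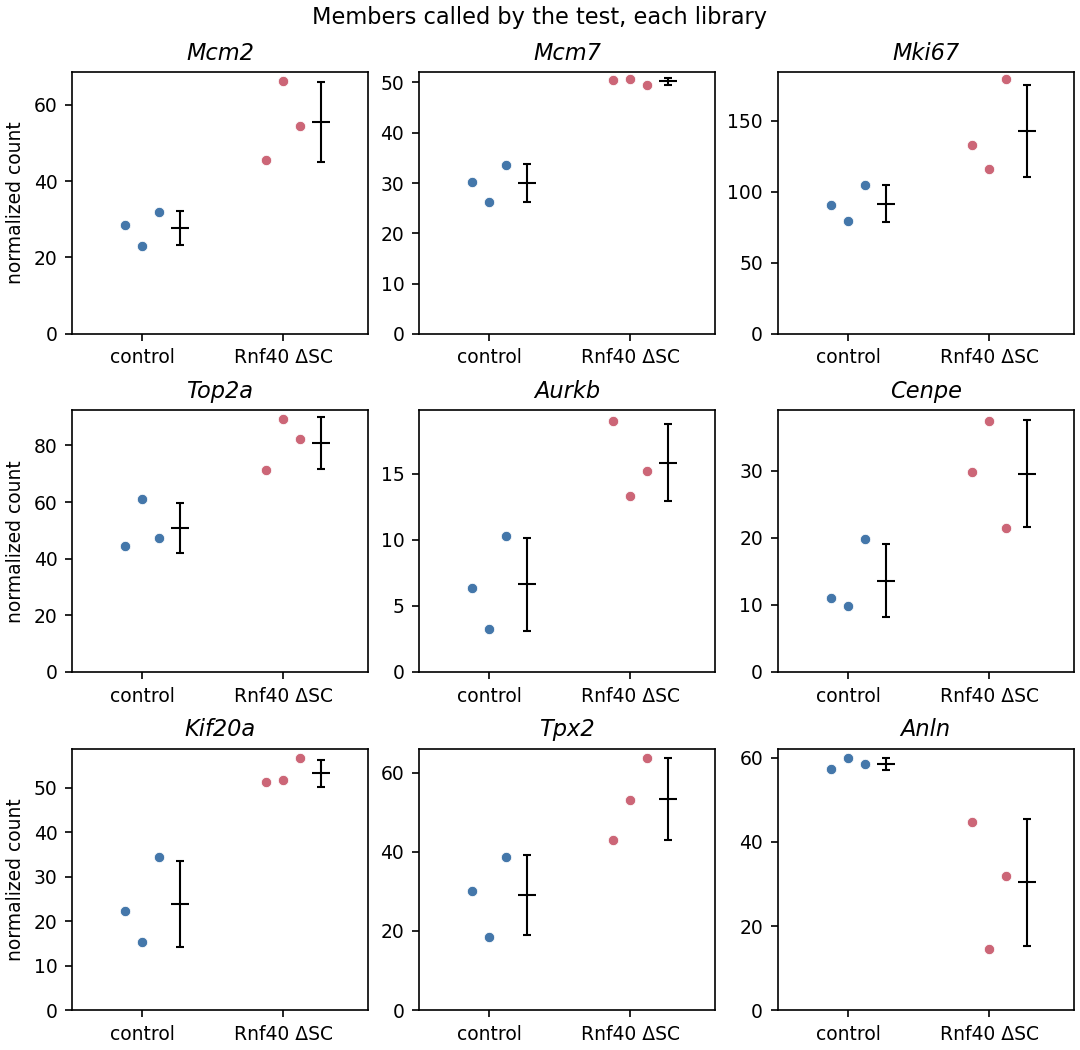
Normalized counts of the 9 genes called by the edgeR test, each point a library, with mean ± SD of 3 libraries at the side. All genes but Anln had every Rnf40 ΔSC library above every control library, and Anln had every Rnf40 ΔSC library below. The genes were picked by a test on these same counts, so that their separation adds no support. Aurkb also passed the filter mainly through the Rnf40 ΔSC libraries. Among all genes tested, 22.0% had every Rnf40 ΔSC library above and 21.6% every one below.

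The mitotic genes lay more evenly to one side than the S phase genes. Of the 27 mitotic genes tested, 26 had a positive log2 fold change, all but Anln, with a median of 0.48 and 6 calls higher (22.2%). The positive sign of Ccnb2 and of Bub1 among them came with the filter. Aurka, Aurkb and Plk1, each with 1 control library and 3 Rnf40 ΔSC libraries at its level, also passed it mainly through the latter. Of the 12 S phase genes tested, 7 were positive, with a median of 0.13 and 2 calls higher (16.7%). Among all genes tested, 49.8% were positive, the median was 0 and 15.4% were called higher, so that the shares of calls were near the background in both phases. The distance between both medians was not stable. Without control replicate 2, the S phase median went to -0.01 and the mitotic median to 0.36, without Rnf40 ΔSC replicate 3 they were 0.36 and 0.47, and with at least 10 counts in every library, which left 25 genes, 0.29 and 0.39. The positive values of the S phase genes were 5 of the 6 MCM subunits, Gins2 and Rrm2, and the sign of Gins2 and of Rrm2 turned when control replicate 2 was left out.

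**Figure D4:**
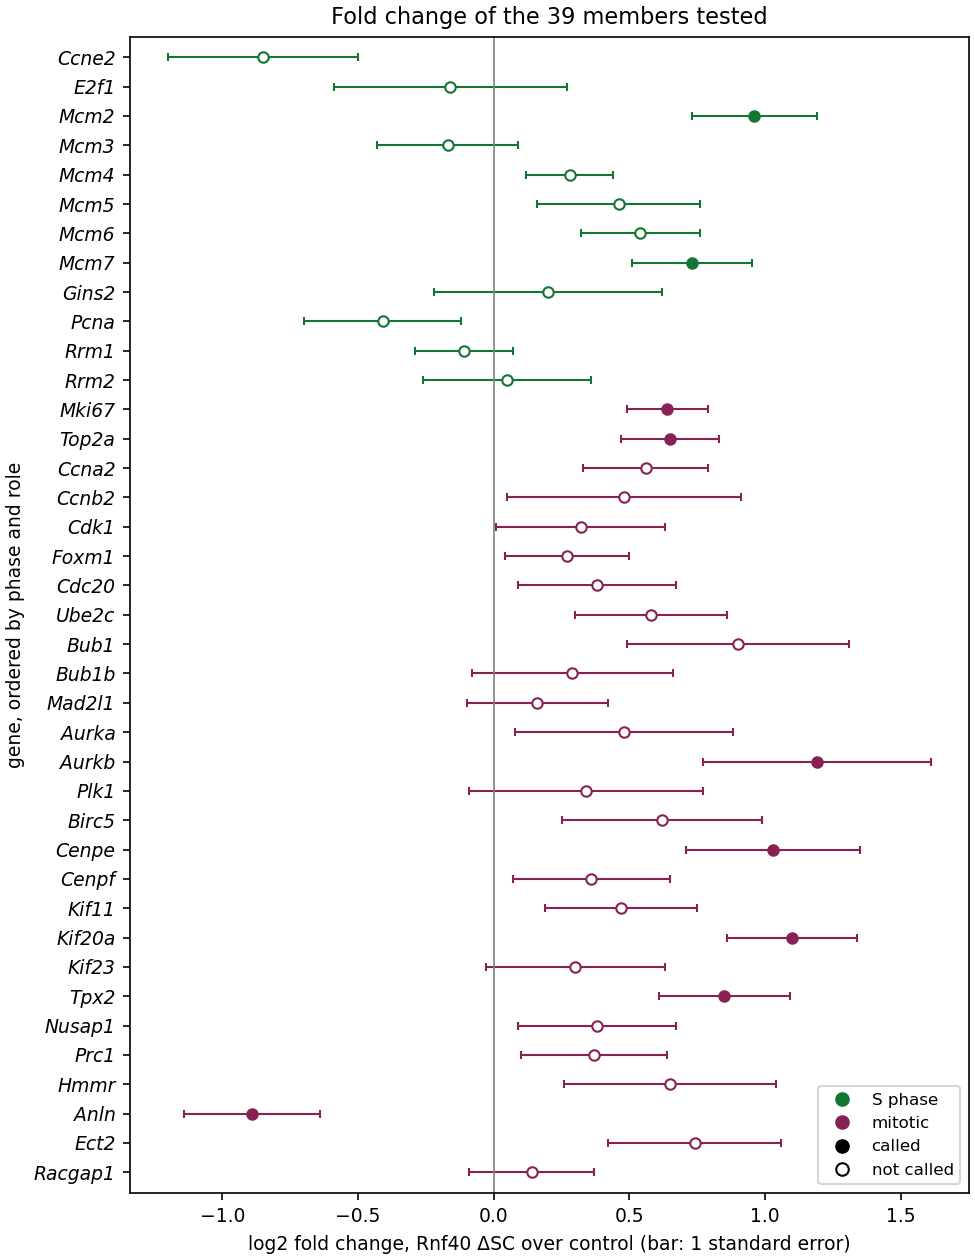
Log2 fold change of the 39 tested genes, Rnf40 ΔSC over control, with bars of 1 standard error, ordered by phase and role. Filled points passed the test at 0.05. Mitotic genes lay right of 0 with the exception of Anln at -0.89, and S phase genes lay on both sides, from -0.85 for Ccne2 to 0.96 for Mcm2.

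Variation between libraries of the same genotype was near that of counting for the median gene, but not for all genes. The variance of counts within genotype over that of counting alone had a median of 0.909 over the 46 genes, and it was above 3 for 5 of them. Of the called genes, all but Mcm7 (0.238) had a value above 1. Prc1 had the highest value, 5.41, with 66.2, 26.5 and 39.1 normalized counts in the Rnf40 ΔSC libraries, followed by Mki67 with 4.84, Anln with 3.51, Ccna2 with 3.3 and Ect2 with 3.06. Counts of these 5 genes thus had the widest spread between pools of nerves relative to counting. They were picked as the highest of 46 values, and no single gene was tested against counting alone. Over all genes with at least 10 counts in a pair of libraries, chi-square per degree of freedom was 1.78 to 1.91 between controls and 2.78 to 5.21 between Rnf40 ΔSC libraries, where counting alone gives about 1.

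Promoters were examined because mitotic genes share known elements there. Bound by the DREAM complex and by B-MYB with FOXM1, the cell cycle homology region (CHR) was searched as TTTGAA or TTCGAA, the box bound by NF-Y as CCAAT, and the E2F element as TTTCCCGC, TTTCGCGC, TTTGCCGC or TTTGGCGC, on both strands, and words of different elements could overlap. RefSeq promoters of GRCm38.p6, 250 bases before to 50 after the start, were matched for 38 of the 46 genes, and those of Ccne2, Mcm4, Gins2, Ccna2, Foxm1, Aurkb, Kif20a and Tpx2 were not matched. Of 24 mitotic genes, 19 held a CHR word (79.2%) and 20 a CCAAT box (83.3%), and of 14 S phase genes 2 (14.3%) and 8 (57.1%). Among all 32851 promoters of the table, 19.2% held a CHR word, 37.4% a CCAAT box and 2.26% an E2F word. E2F words were in 6 of 14 S phase promoters (42.9%) and in 1 of 24 mitotic ones, that of Cdk1.

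The S phase genes with a CHR word were Mcm2 and Mcm7, which were also the called genes of their group. Of the 7 called mitotic genes only 4 had a matched promoter, too few for a comparison with the others. Mki67, Top2a and Anln held the word, Cenpe did not, and 16 genes that held it were not called or not tested. A match is a description of letters and not of binding. The 200 bases before the start are given for 4 called genes that differ in these words, with CHR, CCAAT and E2F words of either strand in capitals. They lie at chr6:88898781-88898980, minus strand, for Mcm2, at chr7:135716380-135716579, minus strand, for Mki67, at chr11:99024190-99024389, minus strand, for Top2a and at chr3:135212363-135212562, plus strand, for Cenpe, all in GRCm38.p6 and upstream of the annotated first exon.
Mcm2: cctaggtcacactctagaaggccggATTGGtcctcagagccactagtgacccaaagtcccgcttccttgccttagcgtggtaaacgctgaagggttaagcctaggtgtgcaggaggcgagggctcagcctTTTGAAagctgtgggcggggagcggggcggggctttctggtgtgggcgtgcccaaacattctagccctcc
Mki67: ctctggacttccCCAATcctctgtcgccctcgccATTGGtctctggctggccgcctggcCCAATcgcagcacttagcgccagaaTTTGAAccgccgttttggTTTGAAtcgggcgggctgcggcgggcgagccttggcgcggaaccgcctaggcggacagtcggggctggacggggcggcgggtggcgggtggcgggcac
Top2a: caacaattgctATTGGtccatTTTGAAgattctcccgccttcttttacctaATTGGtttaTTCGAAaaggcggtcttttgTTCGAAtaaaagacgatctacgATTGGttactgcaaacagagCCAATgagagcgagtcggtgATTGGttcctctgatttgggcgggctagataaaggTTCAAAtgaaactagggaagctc
Cenpe: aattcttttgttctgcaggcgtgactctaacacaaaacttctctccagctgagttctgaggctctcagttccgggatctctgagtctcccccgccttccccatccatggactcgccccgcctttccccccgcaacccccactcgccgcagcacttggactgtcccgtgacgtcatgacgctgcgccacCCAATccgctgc

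The Mcm2 window held 1 CHR word, which began 70 bases before the start, and a CCAAT box on the other strand at 175 bases. In Mki67, CHR words began 116 and 98 bases before the start, behind 3 CCAAT boxes. Top2a held the densest set, with 4 CHR words and 5 CCAAT boxes within the window. Cenpe had a single CCAAT box that began 12 bases before the start and no CHR word in its 300 bases.

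Further genes of the same processes were examined as lists. Of 41 other replication genes tested, 9 were higher (22.0%) and 1 was lower (2.44%), with a median log2 fold change of 0.30. The origin recognition genes Orc4 and Orc6 had log2 fold changes of 0.78 and 0.98. Clspn, the adaptor of the replication checkpoint, had raw counts of 2, 2 and 4 in the control libraries, against 15, 8 and 13 in the Rnf40 ΔSC libraries. No control library reached the filter's level of 4.79 CPM, so that Clspn was tested only through the group in which it was high, and no test is given. In all, 3 of the 9 higher genes reached that level in fewer than 2 control libraries. Pold2, a subunit of DNA polymerase delta, was the lower gene with -1.12 (edgeR adjusted p = 0.00122), and Orc2 and Gins4 with -0.09 each were not called. Of 44 other mitotic genes tested, 5 were higher (11.4%) and 1 was lower (2.27%), with a median of 0.39. Lmnb1, a lamin that is lost from cells leaving the cycle for senescence, had a log2 fold change of 1.06 and the microtubule polymerase gene Ckap5 of 0.39, a call lost without control replicate 3 (edgeR adjusted p = 0.0715). The kinesin gene Kif18b had raw counts of 2, 1 and 8 in the control libraries, against 17, 9 and 22 in the Rnf40 ΔSC libraries. It too passed the filter only through the Rnf40 ΔSC libraries, as 1 of 2 such genes counted among the 5 higher ones, and no test is given. The tubulin gene Tubb4b was lower with -0.64, a call lost in 6 of 12 alternatives, and Espl1 and Tuba1b with -0.59 and -0.38 were not called. Against the background of 15.4% and 16.2%, both lists held few lower genes. With DESeq2, 2 other replication genes were higher and 1 was lower, and 4 other mitotic genes were higher and 0 lower. Among all 11366 genes tested with DESeq2, 1172 were higher and 1287 lower. Total-count scaling gave 14 and 15 higher genes in these lists (34.1% of each, against 33.1% of all genes tested).

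Regulators upstream of these genes were examined in the same way. Of 16 RB, E2F and DREAM genes tested, 1 was higher, Tfdp2, the dimer partner of E2F proteins, with a log2 fold change of 0.47, and 0 were lower by edgeR, where 2 of the 16 (12.5%) had an unadjusted p of at most 0.05, against 41.0% of all genes tested. The call of Tfdp2 was lost in 3 of 12 alternatives. DESeq2 called 0 in either direction, and total-count scaling 5 higher (31.2%, the background being 33.1%). Rbbp4 and Lin52 had 0.24 and 0.49 and Rb1, E2f5 and E2f3 had -0.16, -0.25 and -0.19, none of them called. Of 10 D-type cyclin, CDK and CDK inhibitor genes tested, 1 was lower and 0 were higher by edgeR, and 5 of the 10 had an unadjusted p of at most 0.05 (beside 41.0% of all genes). DESeq2 also called 1 lower and 0 higher, but total-count scaling 0 lower and 5 higher. The lower gene was Cdkn1b, which encodes the inhibitor p27 that holds cells in G1. It had 1189, 1116 and 1123 normalized counts in the control libraries, against 859, 967 and 787 in the Rnf40 ΔSC libraries, without overlap (log2 fold change -0.39, SE 0.09, edgeR adjusted p = 0.000797). With total-count scaling the call of Cdkn1b was lost (adjusted p = 0.278, range over 12 alternatives 0.000213 to 0.278). Cdk4, Ccnd3 and Cdkn1c had log2 fold changes of 0.27, 0.57 and 0.22, and Ccnd2 and Ccnd1 had -0.36 and -0.21, without a call. The adjusted p of Ccnd3 was at most 0.05 in 5 of 12 alternatives, the replicate block among them (0.0174), that of Cdk4 in 3 and that of Cdkn1c in 2. Of 14 p53 target genes tested, 1 was higher, Plk2 with 1.15, and 2 were lower, Ccng1 with -0.60 and Sesn1 with -0.37, shares of 7.14% and 14.3% beside 15.4% and 16.2% of all genes. The call of Sesn1 was lost with total-count scaling (adjusted p = 0.463) and without Rnf40 ΔSC replicate 2 (0.0659), and total-count scaling called 5 of these genes higher and 1 lower. The targets Mdm2, Btg2 and Perp had 0.20, 0.27 and -0.48 and were not called.

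Markers of the cell types in the nerve moved between the groups as well, and their part in the differences of cell cycle genes was not tested. Beside the counts of called markers below stand 16.2% lower and 15.4% higher genes among all genes tested. The gene with the highest level per exon length over all libraries is named for most lists, which need not be the one with the most counts. Of 8 Schwann cell markers, 6 were lower and 2 higher, and their summed level was 45988, 51332 and 49075 CPM in the control libraries, against 12866, 12372 and 11350.3 CPM in the Rnf40 ΔSC libraries (0.25-fold). Nearly all of this sum was Pmp22, a myelin gene. Without it, a split made after seeing the values, the other 7 markers summed to 1691, 1882 and 1824 CPM in the control libraries, against 1497, 1469 and 1514 CPM in the Rnf40 ΔSC libraries (0.83-fold). Fibroblast markers were lower for 8 of 9, with 54474, 53172 and 57616 CPM in the control libraries, against 40640.3, 38974 and 38499 CPM in the Rnf40 ΔSC libraries, and Col3a1 was highest per length. Endothelial markers were lower for 5 of 9, with 797, 706 and 798 against 517, 518 and 609 CPM, Cdh5 being highest per length. All markers of these lists were detected, and the higher genes were Ncam1 and Egr2 of the Schwann cell list.

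Macrophage markers were lower for 7 of 11 tested (63.6%, against 16.2% of all genes), with sums of 557, 509 and 542 CPM in the control libraries, against 373, 369 and 385 CPM in the Rnf40 ΔSC libraries. C1qb was highest per length, and Aif1 had at most 3 counts in any library. The study's staining for the macrophage protein Iba1 went the other way, with more positive cells in Rnf40 ΔSC nerves at this age. Pericyte and smooth muscle markers were lower for 5 of 8, with 1182, 881 and 985 against 632, 604 and 775 CPM, and Acta2, the highest per length, was not called. Perineurial markers were lower for 4 of 5 tested, with 932, 1042 and 1044 against 597, 499 and 573 CPM. Cldn1 was highest per length with a log2 fold change of -0.28, while Itgb4 with -1.69 had the most counts in control nerves. No gene of these lists was called higher by edgeR, nor by DESeq2 or with total-count scaling. Lower genes were fewer in both alternatives for the macrophage list, 4 with DESeq2 and 2 with total-count scaling, and for the perineurial list, 2 with each. Among all genes, 1287 of 11366 were lower with DESeq2 and 7.74% with total-count scaling. Total-count scaling also left 1 lower endothelial gene, 3 lower pericyte and smooth muscle genes and 5 lower fibroblast genes, beside 1 higher fibroblast gene.

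Beside 16.2% of all genes tested, mast cell markers were lower for 3 of 5 tested, 1 of which reached the filter's level in fewer than 2 Rnf40 ΔSC libraries, with 67.5, 78.0 and 96.4 against 57.1, 44.4 and 44.7 CPM. Cpa3 was highest per length, and Fcer1a and Ms4a2 had at most 3 counts. DESeq2 called 1 of these genes lower and total-count scaling 2. Adipocyte markers were lower for 3 of 7, with 1186, 876 and 1503 against 936, 860 and 682 CPM, Fabp4 being highest per length. Lymphocyte markers summed to 7.41, 14.1 and 10.3 against 12.9, 19.4 and 17.8 CPM. Cd79a and Cd8a were at 0 and Cd3d, Cd3e, Cd2, Cd79b and Ms4a1 at 3 counts or fewer. Cd4, the highest gene per length of this list, was named after its values were seen. It had raw counts of 0, 3 and 6 in the control libraries, against 14, 16 and 22 in the Rnf40 ΔSC libraries. Cd4 passed the filter only through the latter, so that no test is given. Ptprc, the other gene of the list past the filter, had raw counts of 6, 18 and 15 in the control libraries, against 15, 11 and 11 in the Rnf40 ΔSC libraries. Its log2 fold change was -0.34 (SE 0.38), and it was not called. Erythroid markers summed to 22.2, 19.2 and 21.0 against 6.87, 9.37 and 23.6 CPM, Alas2 being highest per length, with the hemoglobin symbols of the list at 0. Skeletal muscle markers, of which Acta1 was highest per length, summed to 4867, 3698 and 2743 CPM in the control libraries, against 97.9, 258 and 3415 CPM in the Rnf40 ΔSC libraries, so that only Rnf40 ΔSC replicate 3 was within the range of controls. None of 14 tested was called, although all but 1 had a negative log2 fold change (median -1.59) and 5 had every Rnf40 ΔSC library below every control (21.6% of all genes tested did). Without Rnf40 ΔSC replicate 3, 11 of the 46 genes were called higher and 2 lower, beside 1915 and 1992 of all 11499 genes tested. The mitotic sum was then 1.38-fold in place of 1.4-fold.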

How the data were processed

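The authors had used TopHat for alignment to mm9 and HTSeq to count the reads with a single position per gene. The deposited values are raw counts per gene. The submitters' notes also name Bowtie2 and mm10, and labels and methods differ in the library kit. Annotation and strand setting are not given in the sources used here.

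For the tests, edgeR 4.0.16 was used in R 4.3.3 (filterByExpr, TMM, robust quasi-likelihood test, genotype as only term, Benjamini-Hochberg adjustment over all 11371 genes tested). Normalized counts are counts over effective library size times its mean, and CPM scale counts by effective library size. Exon lengths and gene coordinates came from GENCODE vM1 (mm9). The test was checked on simulated counts of 11070 genes. It recovered 35.7% of 98 genes changed 1.5-fold and 79.8% of 94 genes changed 2-fold, with 15 false calls. The changed genes were drawn from all genes past the filter. Recovery was not measured apart for genes with as few counts as most cell cycle genes. Alternatives were DESeq2 1.42.0, other scaling and filters, a replicate block and each library left out. Values in all libraries are given for Mki67, called genes, the most abundant gene per phase, and S phase genes with large uncalled fold changes. In other cell cycle lists, the 3 genes with the smallest p per direction are named. Members and lists were chosen with earlier results of these data known. Replicates are separate pools per the labels. Some genes of the marker lists are not reported here and were left out of the lists' counts and sums.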

Additional observations from a re-analysis of the deposited data

How the results depend on the processing

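Total-count scaling gave 3766 genes higher and 880 lower of all genes, 16 of the 46 genes higher (4 S phase and 12 mitotic), medians of 0.39 for S phase and 0.74 for mitotic genes, and summed folds of 1.39 and 1.68. This scaling moved the median of all genes by 0.27 on the log2 scale, and values of all genes move with it. With DESeq2, 5 of the 46 were higher, 1 of them of S phase. With the limits of the study set on the edgeR fit, 4 were higher. A minimum of 10 counts in every library, which left 25 of the 46 genes to test, gave medians of 0.29 for S phase and 0.39 for mitotic genes. The causes of the other changes were not tested.

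Over fits that each lacked a single library, 4 to 11 genes were higher and 1 to 2 lower, 1 to 3 S phase and 3 to 8 mitotic genes were higher, and the medians ran from -0.01 to 0.36 for S phase and from 0.36 to 0.58 for mitotic genes. The lowest counts of these genes came without control replicate 2. Among all genes tested, 1293 to 1915 were higher and 1439 to 1992 lower in these fits. Summed folds ran from 1.1 to 1.2 for S phase and 1.32 to 1.49 for mitotic genes. Leaving out Anln, an alternative chosen after seeing the data, gave 1.48 for mitotic genes, Mcm4 1.14 for S phase and Mki67 1.37 for mitotic genes. With Ccna2 counted as an S phase gene, the folds were 1.18 and 1.39.

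Among the cell cycle genes named and refitted, signs turned only for some of those without a call. Single genes of the cell type lists other than Cd4 were not followed through the alternatives. With total-count scaling the log2 fold changes were 0.10 for E2f1, 0.09 for Mcm3, 0.16 for Rrm1, 0.18 for Orc2 and Gins4, 0.11 for Rb1, 0.02 for E2f5, 0.08 for E2f3 and 0.05 for Ccnd1. Over the libraries left out, values ran from -0.45 to 0.29 for E2f1, -0.37 to 0.05 for Mcm3, -0.05 to 0.65 for Gins2, -0.28 to 0.03 for Rrm1, -0.07 to 0.36 for Rrm2, -0.05 to 0.59 for Prc1, -0.19 to 0.05 for Orc2, -0.24 to 0.05 for Gins4 and -0.01 to 0.10 for Sept7.

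With the replicate number as a block, 9 of the 46 genes were higher and 1 lower, and 1727 and 1837 of all genes. Libraries with the same number did not deviate together (correlations -0.0953, -0.015 and -0.0627), so the numbers were not taken to pair them, and no library correlated best with its own number. Depth limits the genes under the filter and those with few counts, such as Aurkb and Cenpe.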
